A study of Mus musculus with 4 samples.

Results

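The genes described here encode the protein side of the pre-mRNA splicing machinery in mouse testis. They were chosen by the start of their symbol (Sf3, Srsf, Sfrs, Hnrnp, Hnrp, Snrp, Prpf or Lsm), which selected 83 of the 12415 genes with reads on the sense strand of exons, and 63 of these 83 also had reads on the sense strand of introns (of 6616 genes). The table of counts uses older symbols, and 21 of the 83 genes now carry another name, which is given in brackets. The testes came from adult mice of the C57Bl/6J strain at postnatal day 60 that were either homozygous (Nef-sp-/-) or heterozygous (Nef-sp+/-) for a null allele of Nef-sp, with 2 libraries for each genotype. The allele is a 23 bp out-of-frame deletion made by injecting Cas9 nickase mRNA and paired guide RNAs into embryos, and founder females were mated to wild-type males. The heterozygous controls also carried the deletion on 1 chromosome, and no wild-type testis was among the 4 libraries. The comparison asks whether loss of NEF-sp, a nuclear enzyme that digests single-stranded RNA from its 3' end, was accompanied by a change in the transcripts of the splicing machinery.

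Splicing removes introns from pre-mRNA in a complex of small nuclear ribonucleoproteins (snRNPs). Sm proteins form a ring on most spliceosomal snRNAs and the related Lsm proteins form one on U6, while the SF3A and SF3B complexes belong to the U2 snRNP that recognizes the branch point. Prp factors act as scaffolds, recycling factors and remodelling factors of the spliceosome. SR proteins mostly favor the use of nearby exons, hnRNPs often oppose it, and several members of both classes limit their own expression through unproductive splicing of their own pre-mRNA. Testis is known for an unusually large number of alternative transcripts.

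The 4 libraries held between 20659865 and 34442517 counted reads, and Nef-sp+/- library 2 was the deepest. Values below are given in the order Nef-sp+/- library 1, Nef-sp+/- library 2, Nef-sp-/- library 1 and Nef-sp-/- library 2. Nef-sp itself (2610020H08Rik in the table) had 1843, 1693, 407 and 497 normalized reads and changed by -1.97 on the log2 scale, with a standard error of 0.09 (adjusted p = 4.1e-06 by edgeR's quasi-likelihood test). It was lower in both libraries labelled Nef-sp-/-. The tissue label was checked against cell type markers. All 5 spermatid genes were present at 215 RPKM or more (normalized reads per kb of exon and per 1000000 exon reads), whereas Alb, Ins2 and Myh6, markers of liver, pancreas and heart, were not listed, and Hbb-b1, a marker of red blood cells, had 1.12 RPKM. No marker gene was called. Of the 4 Leydig cell genes, Cyp11a1 and Cyp17a1 had log2 fold changes of -0.35 and -0.27 and their libraries did not overlap between genotypes, while Star and Insl3 had 0.08 and 0.18 and their libraries overlapped. The summed level of the Leydig cell list, most of it Cyp17a1, was 472, 464, 430 and 369 RPKM. The summed level of the spermatid list was 32398, 39512, 40315 and 39264 RPKM, lowest in Nef-sp+/- library 1, and all 5 of its genes had positive log2 fold changes with a median of 0.12. The part of these shifts in the values below was not tested. In whole testis, fewer cells of a type and less RNA per cell cannot be told apart.

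Most splicing genes lay above the median level of all genes in the testis. The median level over the 83 genes was 21.3 RPKM, compared with 8.37 over the 10426 genes tested that had an annotated length, and 60 of the 83 genes lay above that value. Levels ranged from 0.04 for Lsm11 to 294.5 for Snrpd2. Of the 83 genes, 7 exceeded the 90th percentile of all genes, which is no larger a share than over all genes. By class the median level was 34.4 for the 8 SF3A and SF3B subunits, 27.7 for the 19 hnRNPs, 25.1 for the 18 genes named as SR proteins, 22.1 for the 11 Sm and U snRNP proteins, 19.0 for the 14 Lsm proteins and 16.1 for the 13 Prp factors. The ranges of the 6 classes overlapped widely. Together the splicing genes took 0.856, 0.798, 0.784 and 0.81% of exon reads, so that Nef-sp+/- library 1 stood above the other 3.

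**Figure D1:**
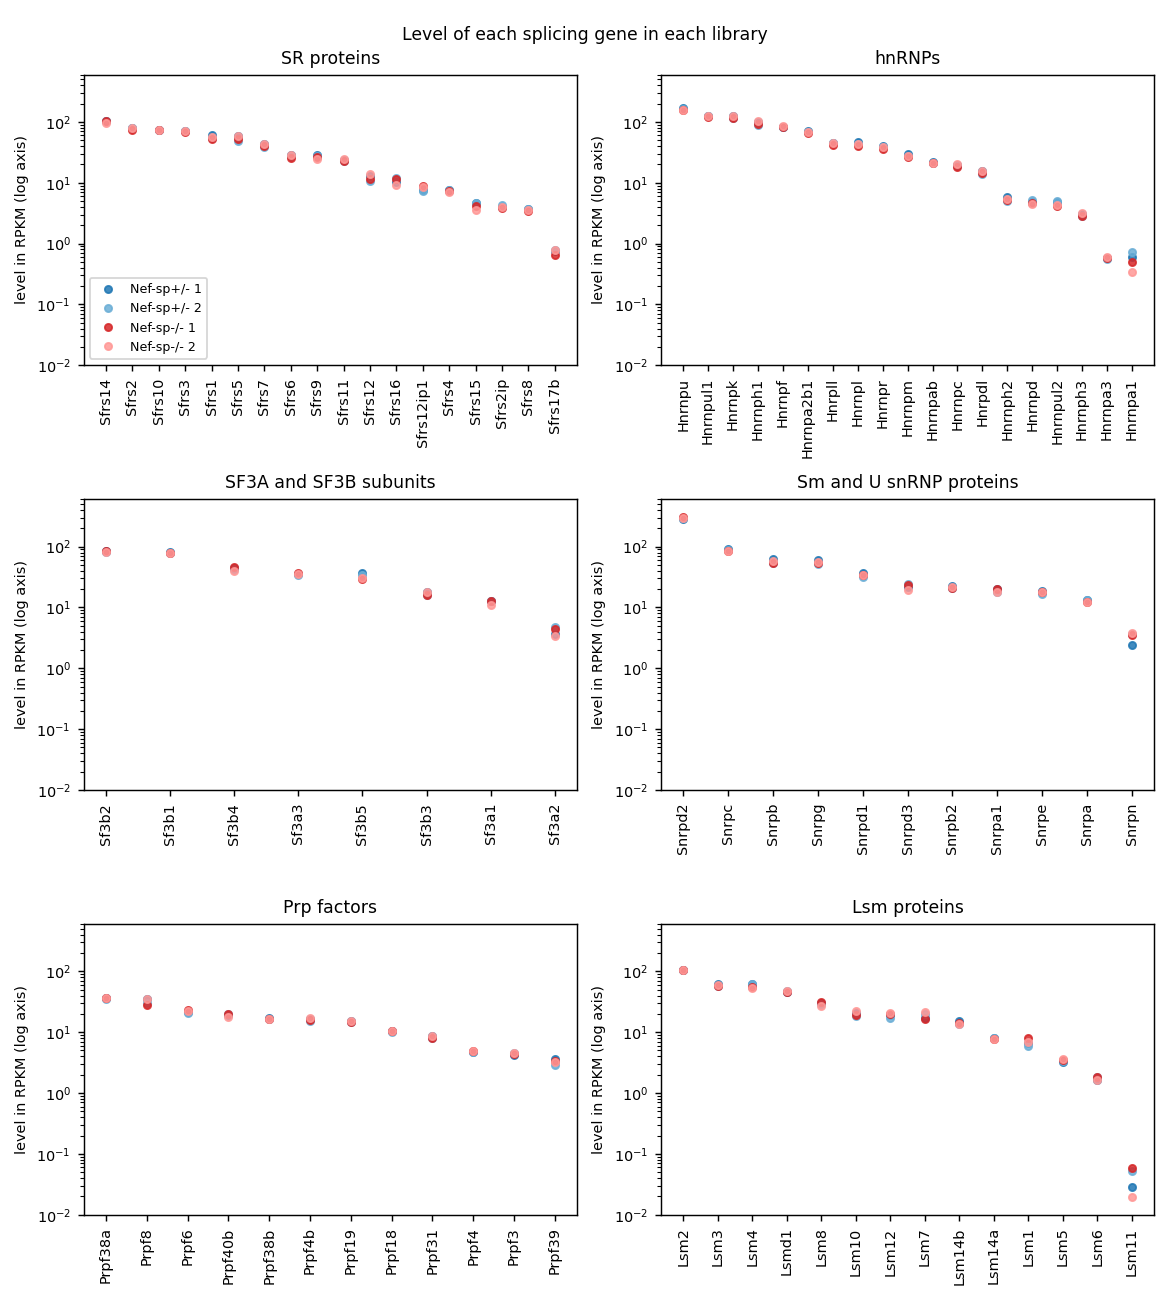
Level in RPKM (normalized exon reads per kb and 1000000 exon reads, log axis) of 82 of the 83 splicing genes, in 6 panels by class and ordered by mean level; each dot is 1 library and colors mark the genotypes. The 4 dots of most genes lie on top of one another, and only genes with few reads, such as Lsm11 and Hnrnpa1, spread visibly.

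The SR class spanned the RS-domain splicing activators and several genes that only share the older symbol. The highest level belonged to Sfrs14 (Sugp2, a SURP and G-patch domain protein), at 102, 102, 102 and 97.2 RPKM. It was followed by Sfrs2 (Srsf2, a classical SR protein) at 80.1, 79, 73.7 and 80.2, and by Sfrs10 (Tra2b, an SR-like activator) at 74.6, 73.6, 72.7 and 74.2. Within each of these genes the genotypes differed by less than 0.1 on the log2 scale. Srsf3 and Srsf1, listed as Sfrs3 and Sfrs1, had mean levels of 69.6 and 55.9, while Sfrs4 (Srsf4), another classical member, had 7.39. These 3 were named after their values were seen. The lowest level in the class was that of the X-linked gene Sfrs17b (Akap17b), at 0.75, 0.79, 0.66 and 0.78.

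Among the hnRNPs, the nuclear matrix protein gene Hnrnpu was the most abundant, at 169, 166, 156 and 158 RPKM. Its relative Hnrnpul1 had 125, 123, 121 and 123, and Hnrnpk, a binder of C-rich RNA, had 126, 116, 117 and 125. The Nef-sp-/- libraries of Hnrnpu both lay below the Nef-sp+/- libraries, while those of Hnrnpul1 and Hnrnpk overlapped. The X-linked Hnrnph2 had a mean level of 5.38 against 95.7 for its autosomal relative Hnrnph1, and the 2 genes were chosen for this comparison after their values were seen. The exon sequence of both is partly shared with other places in the genome, as given below.

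Hnrnpa1 and Hnrnpa3, which encode abundant nuclear RNA-binding proteins in most mammalian cells, were listed near the bottom of the class. Hnrnpa1 (ENSMUSG00000046434, chr15:103070945-103074445 in mm9, plus strand) had 0.6, 0.74, 0.49 and 0.34 RPKM, from 11, 22, 9 and 6 reads. Hnrnpa3 had 0.58, 0.57, 0.57 and 0.61. The sequence of their exons is shared with other places in the genome, which bears on what these counts measure. Reads were 50 bases long and were kept only when they matched the genome perfectly, so every stretch of 50 bases in the annotated exons was searched for in mm9. In Hnrnpa1 only 15.7% of the 670 stretches occurred at 1 place and the median stretch occurred at 5 places. For Hnrnpa3 the share was 15.3% of 4828. A coding stretch with the most matches is shown for Hnrnpa3 and for Hnrnpf, together with a stretch of Hnrnpu for contrast, each from the genome sequence of mm9 and written 5' to 3' on the strand of the gene.
Hnrnpa3: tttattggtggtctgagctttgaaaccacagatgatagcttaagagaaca
Hnrnpf: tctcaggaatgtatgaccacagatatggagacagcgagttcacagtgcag
Hnrnpu: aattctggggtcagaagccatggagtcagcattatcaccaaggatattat
The Hnrnpa3 stretch (chr2:75499562-75499611, plus strand) occurs at 24 places in mm9. The Hnrnpf stretch (chr6:117874577-117874626, plus strand) occurs at 7 places, whereas the Hnrnpu stretch (chr1:180259488-180259537, minus strand) and all other coding stretches of that gene occur only once.

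Shared sequence did not go with a low level in every gene. Hnrnpf had only 28.4% of its stretches at 1 place, yet its level was 82.1, 81.5, 83.3 and 84.1 RPKM. Lsm7, a subunit of the Lsm ring, had 2.74%, which is 8 stretches, and 661 reads over the 4 libraries. Over all 83 genes the median share was 99.1%, 63 genes had 90% or more of their stretches at 1 place, and 7 had under 50%. These 7 were Lsm7, Lsm5, Hnrnpa3, Hnrnpa1, Hnrnpf, Sf3b4 and Snrpc. Under 75% were 17 genes, among them Snrpd2 at 56.0%, Hnrnpk at 61.4% and Hnrnph2 at 67.7%, while Hnrnph1 had 83.3%. How reads with several perfect matches were assigned is not stated in the sources used here. The levels of all these genes are therefore uncertain, and the part of shared sequence in them was not tested.

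**Figure D2:**
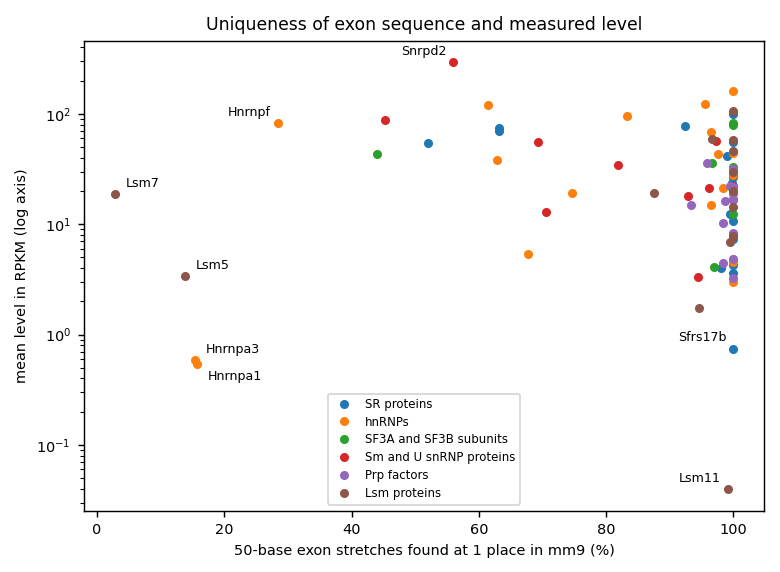
Share of the 50-base exon stretches of each splicing gene that occur at 1 place in mm9 (x axis, %) against its mean level in RPKM (y axis, log axis), with 1 point per gene and colors for the 6 classes. Hnrnpa1 and Hnrnpa3 sit at 15.7 and 15.3% and below 1 RPKM, whereas Hnrnpf and Lsm7 combine a small share with levels of 82.8 and 18.8.

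Subunits of SF3B and SF3A, which contact the branch point region as parts of 1 particle, were not listed at equal levels. Sf3b2 had 83.9, 82.5, 84.3 and 80.1 RPKM and Sf3b1, the scaffold that surrounds the branch point adenosine, had 80.9, 78.1, 78.8 and 78.8. Sf3b4 followed with 44.1, 43.6, 46.6 and 39.6, although only 43.9% of its stretches occur at 1 place. The lowest was Sf3a2, with 3.68, 4.84, 4.34 and 3.46. Sf3b1 and Sf3b2 thus differed little, while the libraries of Sf3b4 and Sf3a2 lay well below both.

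Snrpd2, which encodes the Sm protein D2, had the highest level of the splicing genes, with 285, 297, 303 and 294 RPKM. Only 56.0% of its 50-base stretches occur at 1 place in the genome. Snrpc, the U1-specific protein C, had 89.7, 88.2, 85.6 and 86.2, and Snrpb, which encodes SmB, had 62.4, 53.1, 54.5 and 57.8. Both were far below Snrpd2 in every library. The lowest in this class was Snrpn, an imprinted paralog of Snrpb best known from neurons, at 2.39, 3.61, 3.58 and 3.78.

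No Prp factor reached the levels of the leading hnRNPs. Prpf38a, a component of the precatalytic spliceosome, had 36.5, 34.5, 36.6 and 36.2 RPKM. Prpf8, the large scaffold at the catalytic center, had 34.9, 29.8, 27.6 and 34.7, so that library 1 of Nef-sp+/- and library 2 of Nef-sp-/- were the high ones. Prpf39, a U1-associated factor, was the lowest at 3.56, 2.88, 3.4 and 3.19.

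Lsm2, Lsm3 and Lsm4, which are subunits of both the nuclear and the cytoplasmic Lsm ring, led the class. Lsm2 had 104, 105, 106 and 107 RPKM, Lsm3 had 61.9, 57.5, 56.6 and 58.5, and Lsm4 had 61.4, 61.3, 55.8 and 52.5. The ring-specific subunits Lsm8 (nuclear) and Lsm1 (cytoplasmic) had mean levels of 29.4 and 6.88. Lsm11, which serves the U7 snRNP in histone mRNA processing, had only 3, 9, 6 and 2 reads and was the 1 gene that did not pass the expression filter, whereas its partner Lsm10 had a mean level of 20.2. Lsmd1 (Naa38) carries an Lsm domain but is known as a subunit of an N-terminal acetyltransferase, and its mean level was 46.3. Lsm8, Lsm10 and Lsmd1 were named after their values were seen.

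No splicing gene was called between the genotypes in exon reads. Of the 82 genes tested, 0 had an adjusted p below 0.05 in edgeR's quasi-likelihood test (0.00932% of all 10728 genes tested were called, which is Nef-sp alone), 0 in DESeq2, and the smallest adjusted p was 0.954. At an unadjusted p below 0.05 edgeR gave 6 of 82 genes or 7.32%, against 4.8% of all genes. DESeq2 gave 0 of the 82, but its share over all genes was not computed, so this count has no comparison. Log2 fold changes of Nef-sp-/- over Nef-sp+/- were positive for 32 genes and negative for 50, with a median of -0.02, compared with -0.000224 over all genes. For 60 of the 82 genes the change was smaller than 0.1 on the log2 scale in either direction. Among the 77 genes with at least 100 reads in every library, it ranged from -0.29 to 0.24 with standard errors of up to 0.16. Genes that differed by about 3 standard errors, such as Hnrnpul2, were not called with 2 libraries per genotype.

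Both Nef-sp-/- libraries lay above both Nef-sp+/- libraries for 9 of the 82 genes (11%), against 16.4% of all genes. They lay below them for 18 genes (22%), against 18.1% of all genes. The highest values were unevenly spread over the libraries. Nef-sp+/- library 1 held the highest value of 37 of the 82 genes (45.1%), while it held the highest value of 27.2% of all genes. This library also had the lowest summed level of the spermatid markers, as given above, and the part of this in the splicing genes was not tested. Without that library the median log2 fold change of the splicing genes was 0.00 and 40 genes were negative, and without Nef-sp+/- library 2 it was -0.05 and 62 were negative. Without Nef-sp-/- library 1 the median was also 0.00, with 40 negative genes.

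**Figure D3:**
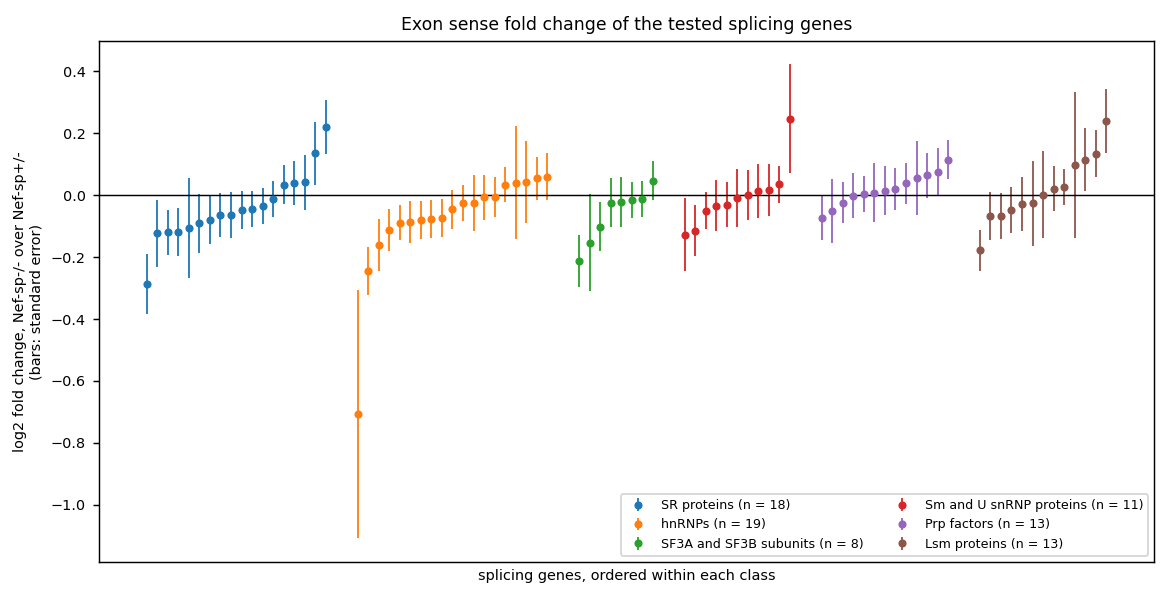
Log2 fold change in exon sense reads, Nef-sp-/- over Nef-sp+/-, of the 82 splicing genes tested (y axis), ordered within their class along the x axis; points are edgeR estimates from 2 libraries per genotype and bars are standard errors. Most points lie within 0.1 of the zero line, and the farthest, Hnrnpa1 at -0.71, has the longest bar.

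By class, the median log2 fold change was -0.06 for the SR genes, -0.05 for the hnRNPs, -0.02 for the SF3A and SF3B subunits, -0.01 for the Sm and U snRNP proteins, 0.00 for the Lsm proteins and 0.01 for the Prp factors. Negative values were found for 13 of 18 SR genes, 14 of 19 hnRNPs and 7 of 8 SF3A and SF3B subunits, but for only 4 of 13 Prp factors, 6 of 13 Lsm proteins and 6 of 11 Sm and U snRNP proteins. The difference between classes was not tested.

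The gene with the smallest p was Hnrnpul2, a relative of the hnRNP U scaffold, with 517, 542, 437 and 459 normalized reads. Both Nef-sp-/- libraries were lower, and the log2 fold change was -0.25 ± 0.08 (± standard error). Sfrs15 (Scaf4, a binder of the RNA polymerase II tail) had 382, 385, 340 and 289 normalized reads and a log2 fold change of -0.29 ± 0.10. The libraries did not overlap here either, but the Nef-sp-/- libraries differed more from each other than the controls did. Lsm4 had 1059, 1058, 963 and 906 normalized reads and changed by -0.18 ± 0.07. Sf3b5, a small subunit of SF3B, had 509, 460, 409 and 422 and changed by -0.21 ± 0.08. For both genes the Nef-sp-/- libraries were the lower ones. By edgeR's quasi-likelihood test the adjusted p was 0.954 for each of these 4 genes.

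Higher values in Nef-sp-/- testes were seen for Sfrs12ip1 (Srek1ip1, a partner of the SR-related protein Srek1), with 340, 323, 396 and 373 normalized reads and a log2 fold change of 0.22 ± 0.09. Lsm1, the cytoplasmic Lsm subunit that promotes decapping of mRNA, had 292, 265, 350 and 304 normalized reads and a change of 0.24 ± 0.10. The adjusted p was again 0.954 in edgeR for both. The largest estimate belonged to a gene with few reads. Hnrnpa1 had 12.7, 15.5, 10.4 and 7.1 normalized reads and a log2 fold change of -0.71 ± 0.40. Snrpn had 97.8, 148, 147 and 155 normalized reads, so that only Nef-sp+/- library 1 was low, and its change was 0.25 ± 0.18. When that library was left out the change of Snrpn was 0.03, and when Nef-sp+/- library 2 was left out it was 0.62 with an adjusted p of 0.0758 in edgeR, while over all alternatives its adjusted p ranged from 0.0758 to 0.9997.

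Intron reads come from unspliced RNA or from introns kept in the transcript. They can also come from another gene that overlaps on the same strand, as annotated for Sf3b3, Hnrnpk and Hnrnpa3 among others. Whether reads that cross an exon junction were counted is not stated in the sources used here, which touches every ratio of intron to exon reads. Among genes listed with both kinds of reads, the splicing genes had more intron reads for their exon reads than other genes. Genes without listed intron reads, such as Prpf6, have no ratio and are left out of what follows. The ratio is not scaled for the length of introns and exons. Summed over the 63 genes with both kinds of reads, 6.42, 5.65, 6.11 and 7.28 intron reads were counted per 100 exon reads. The same ratio over the 6378 other genes was 3.44, 3.28, 3.29 and 3.55. For 59 of the 63 splicing genes, those with at least 100 exon reads in every library, the median of the genes was 2.72 in Nef-sp+/- and 2.7 in Nef-sp-/- testes. Over 5451 other genes that met the same conditions it was 1.06 and 1.1. The ratio exceeded the 90th percentile of the other genes, 10.5, in 15 of the 59. In every library the splicing genes lay above the other genes by more than the libraries differed from one another.

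High ratios were found mainly among the SR proteins and hnRNPs. The median ratio was 11.2 in Nef-sp+/- and 11.7 in Nef-sp-/- testes for 15 SR genes, and 6.59 and 7.23 for 16 hnRNPs. In the core classes it was 1.2 and 1.33 for 8 Prp factors, 0.847 and 0.527 for 7 Sm and U snRNP proteins, 0.76 and 1.28 for 7 Lsm proteins, and 0.732 and 1.06 for 6 SF3A and SF3B subunits. These class values are a description, and the difference between classes was not tested.

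Among the 59 genes with listed intron reads and at least 100 exon reads in every library, the 6 with the highest ratios were 3 SR proteins, 2 hnRNPs and 1 Sm protein. Sfrs5 (Srsf5) was the highest of them with 59.5, 52.6, 57.9 and 64.2 intron reads per 100 exon reads. Hnrnph3 had 43, 32.4, 40.2 and 46, and Hnrnph1, its relative in the hnRNP F/H family of G-run binders, had 30.4, 26.3, 29.8 and 37.1. In all 3 genes Nef-sp-/- library 2 was the highest and Nef-sp+/- library 2 the lowest, and the genotypes overlapped. Sfrs11 (Srsf11) had 29.1, 25.8, 25.9 and 33.6, Sfrs7 (Srsf7) had 23.2, 24, 24 and 24.7, and Snrpd1, which encodes SmD1, had 19.4, 26.1, 23.7 and 26.4. The ratio of Sfrs7 was tight between libraries, while those of the other 2 varied within genotype. Only 51.9% of the 50-base stretches of Sfrs5 occur at 1 place in the genome. Snrpd1 has 9598 intron bases beside 837 exon bases. Per base, its intron reads were only 2.1% of its exon reads, compared with 6.07% for Sfrs11, 10.9% for Hnrnph1 and 11.8% for Sfrs7.

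At the other end of these 59 genes stood core factors, and genes without listed intron reads could not be ranked. Snrpd2 had 0, 1, 3 and 1 intron reads in the 4 libraries, Sf3b4 had 2, 0, 1 and 2, Sf3b2 had 2, 2, 0 and 6, and Prpf8 had 3, 4, 0 and 5. Prpf8 had between 3336 and 5904 exon reads in the same libraries. Sfrs1, named after its values were seen, had 0.57, 0.55, 0.6 and 0.58 intron reads per 100 exon reads. It has only 825 intron bases beside 5558 exon bases. Per base, its intron reads were 3.85% of its exon reads, compared with 3.13% for Sfrs10 and 28.7% for Sfrs5. Hnrnpa1 and Hnrnpa3 did not have 100 exon reads in every library. Hnrnpa3 had more intron than exon reads in all 4 libraries, with 66, 98, 56 and 76 intron reads against 50, 80, 49 and 51 exon reads.

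**Figure D4:**
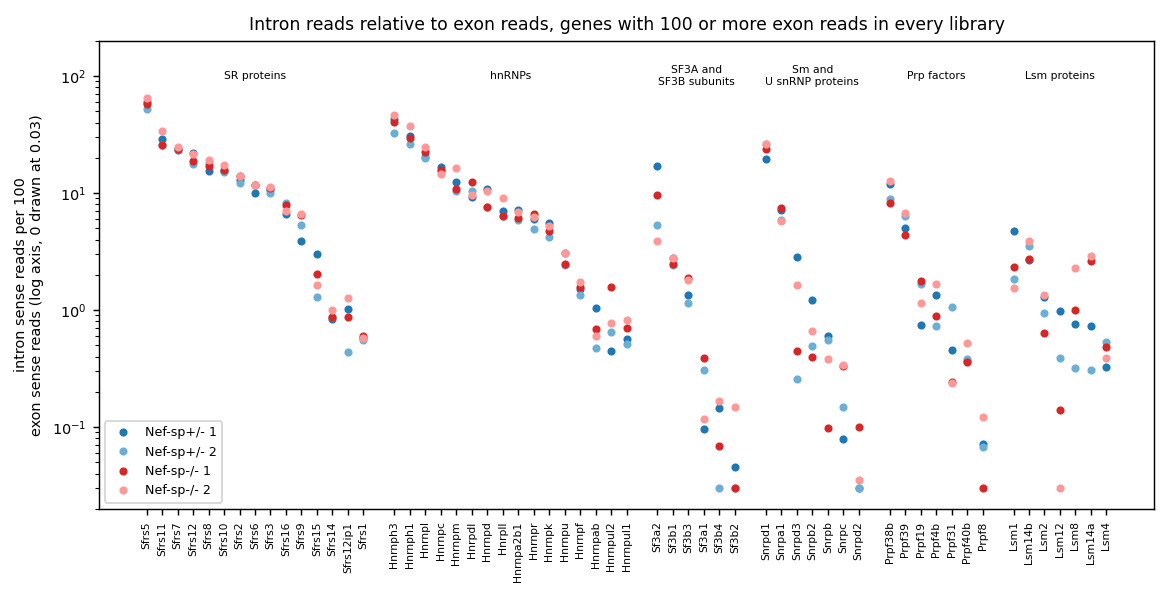
Intron sense reads per 100 exon sense reads (log axis, values of 0 drawn at 0.03) of 58 of the 59 splicing genes with a ratio. These 59 had listed intron reads and at least 100 exon reads in every library. Genes are grouped by class and ordered within it. Each dot is 1 library and colors mark the genotypes. SR proteins and hnRNPs lie mostly between 1 and 60, while most genes of the other classes lie below 3.

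Between genotypes, the summed ratio was 6.03 ± 0.54 in Nef-sp+/- and 6.7 ± 0.83 in Nef-sp-/- testes (SD, n = 2), and the ranges overlapped. The difference of 0.664 fell to 0.0777 without Nef-sp-/- library 2, which also had the highest ratio among all other genes. Without Nef-sp+/- library 1 or Nef-sp-/- library 1 the difference was 1.04 and 1.25, and without Nef-sp+/- library 2 it was 0.283. By gene, both Nef-sp-/- libraries lay above both controls in 17 of 59 genes (28.8%), against 17.0% of all genes with such a ratio. The reverse held for 3 genes (5.08%), against 12.5% of all genes. No minimum of intron reads was set, for these or for the other genes. The 17 thus included ratios near 0, such as 0, 0.0207, 0.1 and 0.0353 for Snrpd2. Those of Snrpc were 0.0791, 0.148, 0.333 and 0.338. Also among the 17 were the SR genes Sfrs2, Sfrs3, Sfrs7 and Sfrs10 and the hnRNPs Hnrnpl and Hnrnpr, which were named after their values were seen. For Sfrs2 the ratios were 12.9, 12.1, 14 and 13.9, and for Hnrnpl, a CA-repeat binder, they were 20.3, 19.7, 22.2 and 24.6. The separation was small in both genes compared with the level of the ratio.

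Tested as counts of their own, intron reads gave no call among the splicing genes. Of the 40 genes that passed the filter, 0 had an adjusted p below 0.05 in edgeR (0.0294% of all 3403 genes tested were called) or in DESeq2, and 1 gene (2.5%) had an unadjusted p below 0.05 in edgeR, against 2.35% of all genes. DESeq2 also gave 1, again without a share over all genes. The log2 fold change was positive for 24 and negative for 16 genes, with a median of 0.05 compared with 0.01 over all genes. The libraries separated with Nef-sp-/- higher for 7 genes (17.5%), against 13.5% of all genes, and with Nef-sp-/- lower for 1 gene (2.5%), against 14.5%. Here Nef-sp-/- library 2 held the highest value of 18 of the 40 genes (45%), and of 28% of all genes. Without that library the median was -0.03, and without Nef-sp+/- library 2 it was -0.01.

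The gene below 0.05 was Lsm14a, which encodes a processing body protein that represses translation. It had 3, 2, 10 and 11 intron reads. Both Nef-sp-/- libraries were higher, and the ratio of normalized reads was 5.41, with an exact interval of 1.98 to 18.3 at 95% that covers counting error only. The adjusted p was 0.9996 by edgeR's quasi-likelihood test. Its exon reads went the other way, with 470, 463, 442 and 446 normalized reads and a log2 fold change of -0.07.

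Of the other genes with the largest estimates or the smallest p in intron reads, Hnrnpul1 had 46, 44.2, 58.3 and 62.7 normalized reads and a log2 fold change of 0.43 ± 0.22. Sf3b3 had 20.2, 16.2, 26.2 and 25.3 and a change of 0.53 ± 0.32. In both genes the Nef-sp-/- libraries were higher, and edgeR gave an adjusted p of 0.9996 for each. Hnrnph1, the most deeply covered of them, had 1366, 1151, 1336 and 1649 normalized intron reads and a change of 0.25 ± 0.15, and its genotypes overlapped. Sf3a2 had 26.9, 11.8, 19.1 and 5.5 and a change of -0.58 ± 0.49, and Prpf4b, a kinase of the spliceosome, had 17.9, 9.57, 11.9 and 22 and a change of 0.39 ± 0.43. The direction of these last 2 changed when single libraries were left out. Hnrnpf was the only gene whose libraries separated in the same direction in both kinds of reads. It had 4306, 4278, 4371 and 4415 normalized exon reads and 63.9, 59.6, 71.4 and 71.5 normalized intron reads, with log2 fold changes of 0.03 ± 0.06 and 0.22 ± 0.21.

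Antisense reads were listed at 20 of the 83 genes on exons and at 19 on introns. Over all features, 2346 were listed with exon antisense and 2754 with intron antisense reads, beside 12415 genes with exon sense reads. The introns of Hnrpll had 1556, 2740, 1706 and 1710 antisense reads, which is 1814, 1932, 1964 and 1998 after normalization. Its sense introns had 183, 174, 161 and 218 normalized reads. The antisense change was 0.08 ± 0.08 (adjusted p = 0.969, edgeR), and the gene was named after its values were seen. On exons, Prpf39 had the most antisense reads, with 140, 264, 171 and 150 beside 240, 317, 228 and 209 sense reads.

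Genes of the splicing machinery with other names were not called either. Of 84 such genes in a list that included U2 auxiliary factors, U5 and U1 snRNP proteins, DEAH-box helicases and tissue-specific regulators, 82 were listed and 81 were tested. None was called by edgeR and 8 had an unadjusted p below 0.05, against 4.8% of all genes. In this list 32 changes were positive and 49 negative, with a median of -0.02 compared with -0.000224 over all genes. Those with the smallest p were Sf1, the branch point binding protein, with 1996, 1913, 1705 and 1697 normalized reads (-0.20 ± 0.06), Rod1 (Ptbp3) with 488, 499, 555 and 598 (0.22 ± 0.08), and Khdrbs1 (Sam68, a regulator of splicing in germ cells) with 1530, 1352, 1267 and 1252 (-0.19 ± 0.07). The adjusted p of each was 0.954. In the same list the X-linked Rbmx had a mean level of 0.73 RPKM against 54.3 for its autosomal retrocopy Rbmxl2, and both were named after their values were seen. Sequence shared with other places in the genome was not searched for in either gene, so these levels are uncertain in the same way.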

How the data were processed

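Total testicular RNA was depleted of ribosomal RNA, converted to strand-specific libraries (TruSeq Stranded Total RNA) and sequenced for 50 cycles. The authors trimmed adapters, placed reads on mm9 by tools of their own, discarded imperfect matches and deposited raw counts by feature, annotation category and strand. Tool versions are not given in the sources used here. The deposited table lists features with at least 5 reads over the 4 libraries. The authors also deposited a mean normalized signal, log2 fold changes and p-values of their own DESeq2 comparison, which were not used.

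The 83 genes were taken by the start of their symbol, and 21 were given current names through RefSeq synonyms (GRCm38, names only). The genes, classes and lists were chosen with earlier results of these data known. Counts of each category were fitted with edgeR 4.0.16 in R 4.3.3 (TMM, expression filter with minimum count 10, quasi-likelihood test without covariates), Benjamini-Hochberg adjustment ran over all features of a category with a threshold of 0.05, and the fit was tested on simulated data. Normalized reads are counts scaled to the mean effective library size. Standard errors were computed as the size of the log2 fold change over the square root of its quasi-likelihood F statistic. Exon lengths and 50-base stretches came from protein-coding transcripts of GENCODE vM1 on mm9. Named in each library were, per class, the 3 highest and the lowest level, in each category the 5 largest changes and 5 smallest p, the 6 highest and 4 lowest intron ratios, genes separated the same way in exons and introns, and the 3 other splicing genes with the smallest p. The values of 1 gene under this rule are not reported here. Replicate libraries differed by more than sampling noise (chi-square per degree of freedom 8.53 and 3.52). The labels do not say which animals were littermates, so litter could not be taken into account. The p-values rest only on the spread between these libraries, estimated with information from all genes of a category. The main alternatives were DESeq2 1.42.0, its size factors, other filters, a replicate block and leaving out each library. Figures were drawn with matplotlib 3.10.9.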

Additional observations from a re-analysis of the deposited data

How the results depend on the processing

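No splicing gene was called in exon or intron reads under any alternative run, namely the size factors of DESeq2, DESeq2 itself, library sizes over all categories, no filter, at least 10 counts in every library, a single fit over all categories, a replicate block and each library left out. Over all genes, the number called in exon reads was 1 in the main comparison, 2 in DESeq2, 41 without Nef-sp+/- library 1 and 252 without Nef-sp+/- library 2, and the cause was not tested. In intron reads it was 1, and it was 0 with library sizes over all categories, with no filter and with a single fit. With 1 library left out, the remaining library of that genotype was assumed to vary like the other genotype. The median log2 fold change over the splicing genes then ranged from -0.05 to 0.00 in exon reads and from -0.0318 to 0.0568 in intron reads. The change of Sf3a2 in intron reads ranged from -1.70 to 0.077 and that of Prpf4b from -0.13 to 0.82. The difference in intron reads per 100 exon reads ranged from 0.0777 to 1.25, and as the median of genes it was -0.0167.

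Deviations of same-numbered libraries from their genotype mean correlated at -0.0854 in exon and -0.145 in intron reads. With 2 libraries per genotype these values cannot tell whether same-numbered libraries shared a litter or batch, and the labels do not say. With the replicate number as a block, 0 splicing genes were called and the medians were -0.03 and 0.05. A crossed replicate block, added after that correlation was seen, called 0 splicing genes and 2 genes in all in intron reads, with a median of 0.04. Depth limits the intron reads, since 23 of 63 genes did not pass the filter.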
